A study of Mus musculus with 4 samples.

Results

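Bile acids are made from cholesterol in hepatocytes, joined to taurine or glycine, and pumped into bile by a set of membrane transporters. This report follows 10 genes of that system in mouse liver that lacked the mitochondrial fission protein Drp1 and in control liver. They are the synthesis enzymes Cyp7a1, Cyp8b1, Cyp27a1 and Cyp7b1, the conjugation enzymes Slc27a5 and Baat, the nuclear receptors Nr1h4 and Nr0b2, and the transporters Slc10a1 and Abcb11. A gene was read from the gene probes that carry its symbol in the scanner files, which gave 12 probes of the 39429 on the array and 10 of 30439 genes or transcripts. All 10 were well above background, that is, called clearly brighter than the local background by the scanner software, on all 4 arrays.

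Bile acid synthesis has a classic route that starts with Cyp7a1 and an alternative route that starts with Cyp27a1 and continues with Cyp7b1. Bile acids feed back on their own synthesis: they activate the receptor encoded by Nr1h4 (FXR), which induces Nr0b2 (SHP), a corepressor that lowers transcription of Cyp7a1 and Cyp8b1, and which also induces the export pump Abcb11. A hormone from the ileum, FGF15, represses Cyp7a1 through a receptor on hepatocytes after meals. In mice, Cyp7a1 transcripts also vary over the day.

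RNA came from the livers of male C57BL/6J mice, with 1 array for each of 4 groups. Cont were littermates with Drp1 flox/flox alleles and no Cre, which the labels call wild type. Drp1LiKO carried the same alleles with Alb-Cre Tg/+, in which the albumin promoter drives the recombinase, so the deletion was aimed at hepatocytes. Whether other cells of the liver also lost the gene was not measured here. All mice had been on a high-fat diet for 24 weeks, begun at 4 weeks of age by the methods. The labels of the refed Cont and the refed Drp1LiKO liver give 4 h of feeding after a fast, and the series description gives that fast as 17 h. For the remaining 2 livers the labels are silent on feeding, and they are called fasted here from the methods of the study. They are also described as sharing their raw data with an earlier submission. By the methods, fasted livers were taken between 10 and 11 o'clock and refed livers between 14 and 15 o'clock, so refeeding and time of day cannot be told apart.

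The 4 arrays lay on 1 slide and were read in 1 scan. No spot was saturated, and from 48.7% to 58.2% of gene spots on each array passed that background criterion, the Drp1LiKO array of each pair having more of them. The hepatocyte markers Alb, Apoa1, Ttr, Tat and Serpina1a were well above background on all 4 arrays. The gene deleted in Drp1LiKO, Dnm1l, had log2 levels of 1.02 in fasted Cont, 0.81 in fasted Drp1LiKO, 0.66 in refed Cont and 0.54 in refed Drp1LiKO liver. Its genotype differences of -0.21 and -0.12 were at most about as large as their measurement SE of 0.20. Its probe starts at base 3993 of the transcript, and the sources used here do not name the deleted exon, so this probe does not check the genotype labels.

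A level below is the log2 signal of a gene minus the log2 of the 75th percentile of the gene spots on its array, so that it is relative to the array and not to other genes. A difference is a log2 level minus another, always as Drp1LiKO minus Cont or as refed minus fasted. The measurement SE from the scanner's error model was between 0.20 and 0.21 for every difference between 2 arrays of these genes and 0.29 for a difference of 2 differences. For a level it was between 0.144 and 0.146 for each of the 10 genes on every array. A limit of 1 or 2 measurement SEs was thus nearly the same size for all of them. Where a probe had repeated spots, their errors were averaged and not made smaller. The measurement SE does not hold the spread between mice. With 1 array a group there were no replicates, no difference between 2 arrays could be tested, and the number of arrays limits the precision of every value. A difference was called at 2-fold or more, which is 1 on the log2 scale, where the brighter signal was well above background. In RNA from whole liver, fewer cells of a type and less RNA per cell cannot be told apart.

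The genes with a called difference were Cyp7a1, Cyp8b1, Cyp7b1 and Nr0b2. Their probes are shown by the first 30 of 60 bases, because each value below is the signal of that stretch of the transcript, and the 2 probes of Slc10a1 are shown because they differ in what they can bind. Capitals mark bases that lie in a run of 20 bases also found, on the other strand, in a probe of another gene.
Cyp7a1: ttgtttttaaaacaagttttatgactccct
Cyp8b1: aaacctggaaaaagacggcataagctgttg
Cyp7b1: ttggttgagatcaatccagttggttttggg
Nr0b2: agtatacttaagaagatcctgctagaggaa
Slc10a1, brighter probe: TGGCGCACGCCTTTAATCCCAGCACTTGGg
Slc10a1, dimmer probe: cctacaaaggcattatgttatcactcgtca
Among the 12 probes of the 10 genes, the brighter Slc10a1 probe alone shared such a run, with 3 probes of other genes. Its letters are those of the B1 element, a short repeat that occurs in very many mouse transcripts, so its signal can include other RNAs. In the mm9 build the Cyp7a1 probe lies at chr4:6193456-6193515, the Cyp8b1 probe at chr9:121824595-121824654, the Cyp7b1 probe at chr3:17972286-17972345 and the Nr0b2 probe at chr4:133109694-133109753. The brighter Slc10a1 probe lies at chr12:82056539-82056598 and the dimmer one at chr12:82061470-82061529. All are on the minus strand except the Nr0b2 probe, which is on the plus strand. The probes start at base 3415 of the transcript of Cyp7a1, 769 of Cyp8b1, 1770 of Cyp7b1 and 389 of Nr0b2, and whether these bases are coding was not settled here.

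Cyp7a1, the rate-limiting enzyme of the classic route, differed with refeeding in opposite directions in the 2 genotypes. Its level was 1.75 in fasted Cont, 1.59 in fasted Drp1LiKO, 0.72 in refed Cont and 2.33 in refed Drp1LiKO liver. The refed Drp1LiKO liver was the highest and the refed Cont liver the lowest, and the 2 fasted livers lay between them and differed by less than 1 measurement SE. Refeeding went with a difference of -1.03 in Cont (2.04-fold lower) and of 0.75 in Drp1LiKO (1.68-fold higher, not called). The genotype difference was -0.17 in the fasted and 1.61 in the refed state, where Drp1LiKO liver was 3.05-fold higher. The genotype difference after refeeding exceeded the one after fasting by 1.78. The Cont value was close to the limit of the call, and with another background correction (normexp) it was -0.98 and not called.

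Nr0b2, the corepressor downstream of FXR, ran the other way. Its level was 0.38 in fasted Cont, 1.08 in fasted Drp1LiKO, 0.65 in refed Cont and -0.71 in refed Drp1LiKO liver. The refed Drp1LiKO liver stood below the other three, and the fasted Drp1LiKO liver was the highest. The genotype difference was 0.69 after fasting (1.62-fold higher in Drp1LiKO, not called) and -1.36 after refeeding (2.58-fold lower). Refeeding went with a difference of 0.27 in Cont and of -1.79 in Drp1LiKO, a 3.46-fold lower signal. The second genotype difference minus the first was -2.06. Ordered from the lowest of the 14447 genes that were well above background on all 4 arrays, this value stood in place 54, and that of Cyp7a1 stood in place 54 from the highest.

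Nr1h4, which encodes FXR itself, varied little. It read 4.49 and 4.20 in fasted Cont and Drp1LiKO liver and 4.74 and 4.53 after refeeding. No neighbours in the order of its 4 levels differed by 2 measurement SEs, its genotype differences were -0.29 and -0.22, and the second minus the first was 0.08.

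**Figure D1:**
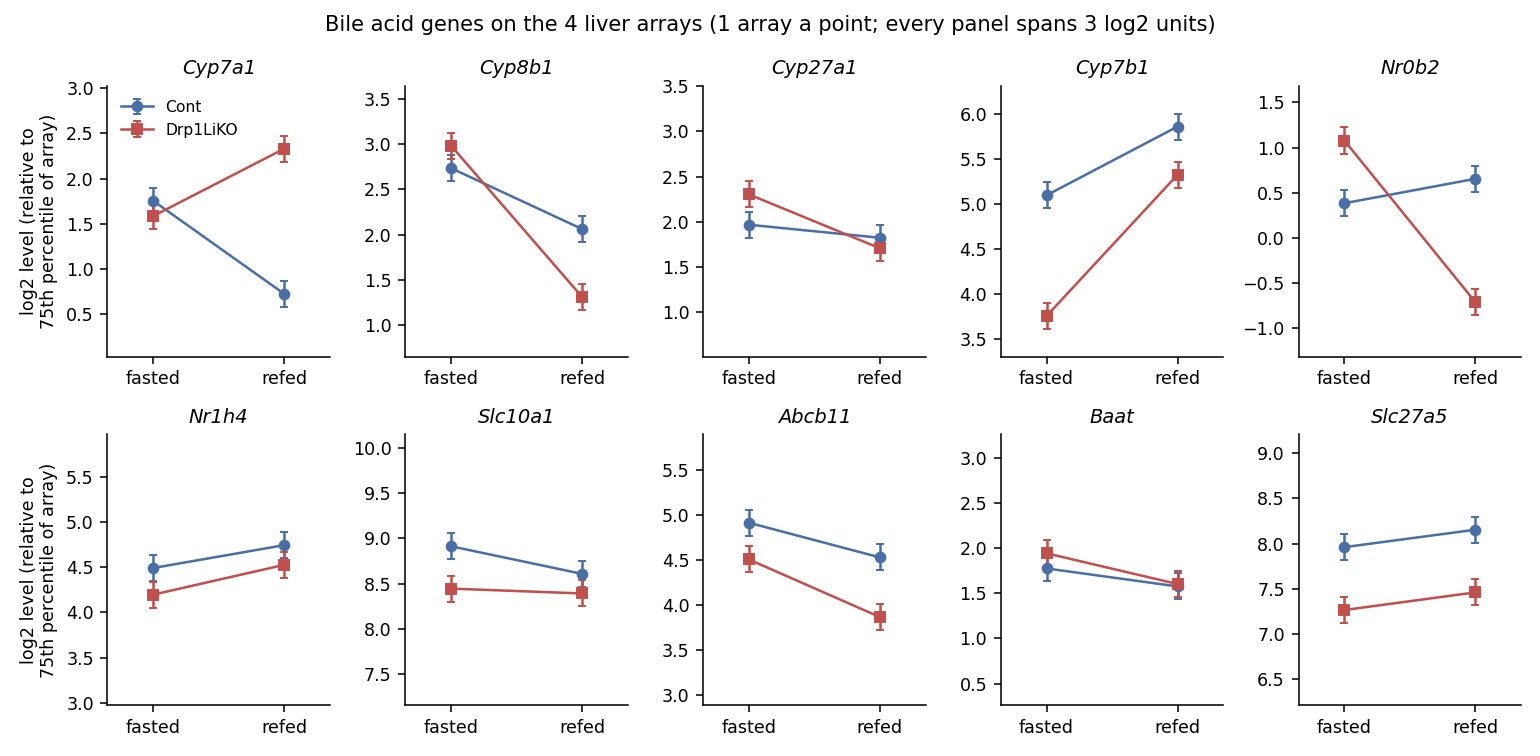
Log2 level, relative to the 75th percentile of the array, of each gene in fasted and refed liver of Cont (blue circles) and Drp1LiKO (red squares), with 1 array a point and bars of 1 measurement SE. The lines of Cyp7a1 cross, from 1.75 and 1.59 in the fasted to 0.72 and 2.33 in the refed state in Cont and Drp1LiKO, those of Nr0b2, Cyp8b1 and Cyp27a1 cross the other way, and those of Slc27a5 run side by side.

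Cyp8b1, the sterol hydroxylase that sets the share of cholic acid, was lower after refeeding in both genotypes. Its level was 2.74 in fasted Cont, 2.98 in fasted Drp1LiKO, 2.06 in refed Cont and 1.31 in refed Drp1LiKO liver. Both refed livers lay below both fasted livers, and the fasted pair differed by less than 2 measurement SEs. The refeeding difference was -0.67 in Cont, which was not called, and -1.67 in Drp1LiKO, a 3.19-fold lower signal. The genotype difference was 0.25 after fasting and -0.75 after refeeding. The second minus the first was -1.001, just at the limit of 2-fold, and it missed that limit with scaling to the median and with normexp. Cyp8b1 and Nr0b2 were thus lowest in the same liver, the one in which Cyp7a1 was highest.

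Cyp7b1, the oxysterol hydroxylase of the alternative route, was lower in Drp1LiKO liver in both states and higher after refeeding in both genotypes. Its level was 5.10 in fasted Cont, 3.76 in fasted Drp1LiKO, 5.86 in refed Cont and 5.32 in refed Drp1LiKO liver. The fasted Drp1LiKO liver stood alone below the others. The genotype difference was -1.34 after fasting (2.53-fold lower) and -0.53 after refeeding (not called). The refeeding difference was 0.76 in Cont (not called) and 1.56 in Drp1LiKO, a 2.96-fold higher signal. Quantile normalization of the arrays brought the 2 called values to -1.12 and 1.24.

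Cyp27a1, the mitochondrial sterol hydroxylase that opens the alternative route, is the one gene of the set printed 10 times on each array. It read 1.97 in fasted Cont, 2.30 in fasted Drp1LiKO, 1.82 in refed Cont and 1.71 in refed Drp1LiKO liver, with an SD between 0.056 and 0.069 over the 10 spots. The 10 spots ran from 1.86 to 2.08 in fasted Cont and from 2.17 to 2.37 in fasted Drp1LiKO liver and did not overlap, while the difference of 0.34 between these arrays was less than 2 measurement SEs. The spots of an array share its RNA, labelling and scaling. The refeeding difference in Drp1LiKO was -0.60, and none of its differences reached 2-fold.

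The conjugation enzymes were measured side by side with these. Slc27a5, the bile acyl-CoA synthetase that activates bile acids before conjugation, was lower in Drp1LiKO liver by the same amount in both states. It read 7.96 and 7.26 in fasted Cont and Drp1LiKO liver and 8.15 and 7.46 after refeeding. The genotype differences were -0.70 and -0.69, about 1.62-fold, and both Cont livers were above both Drp1LiKO livers. A second probe of the gene gave -0.64 and -0.72. Under quantile normalization the differences were -0.28 and -0.49. Other abundant hepatocyte transcripts lay lower too, with genotype differences of -0.52 and -0.55 for Alb, -0.63 and -0.66 for Ttr and -0.67 and -0.58 for Serpina1a. Apoa1 differed by -0.16 and -0.27 and Tat by 1.04 and 0.98. The part of the overall hepatocyte signal or of the scaling of bright probes in the Slc27a5 value was not tested. Baat, which joins the activated bile acid to taurine or glycine, read 1.78, 1.94, 1.58 and 1.60 in fasted Cont, fasted Drp1LiKO, refed Cont and refed Drp1LiKO liver, and no neighbours in the order of its levels differed by more than 1 measurement SE.

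Abcb11, the bile salt export pump of the canalicular membrane, was lowest in refed Drp1LiKO liver. Its level was 4.91 in fasted Cont, 4.50 in fasted Drp1LiKO, 4.53 in refed Cont and 3.87 in refed Drp1LiKO liver. The fasted Cont liver was highest, and the 2 in the middle were level. The genotype differences were -0.41 and -0.66 and the refeeding differences -0.38 in Cont and -0.64 in Drp1LiKO, and none reached 2-fold. Under quantile normalization the genotype differences were -0.16 and -0.50 and the refeeding differences -0.60 and -0.94. Slc10a1, the sodium-dependent uptake carrier NTCP, read 8.91, 8.44, 8.61 and 8.39 in the same order with its brighter probe and 3.58, 3.24, 3.44 and 3.20 with the dimmer probe, which holds no B1 letters in the bases shown. The genotype differences were -0.47 and -0.22 with the first probe and -0.35 and -0.24 with the second. Those of the first turned to 0.04 and 0.16 under quantile normalization, so no direction is given for this gene.

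**Figure D2:**
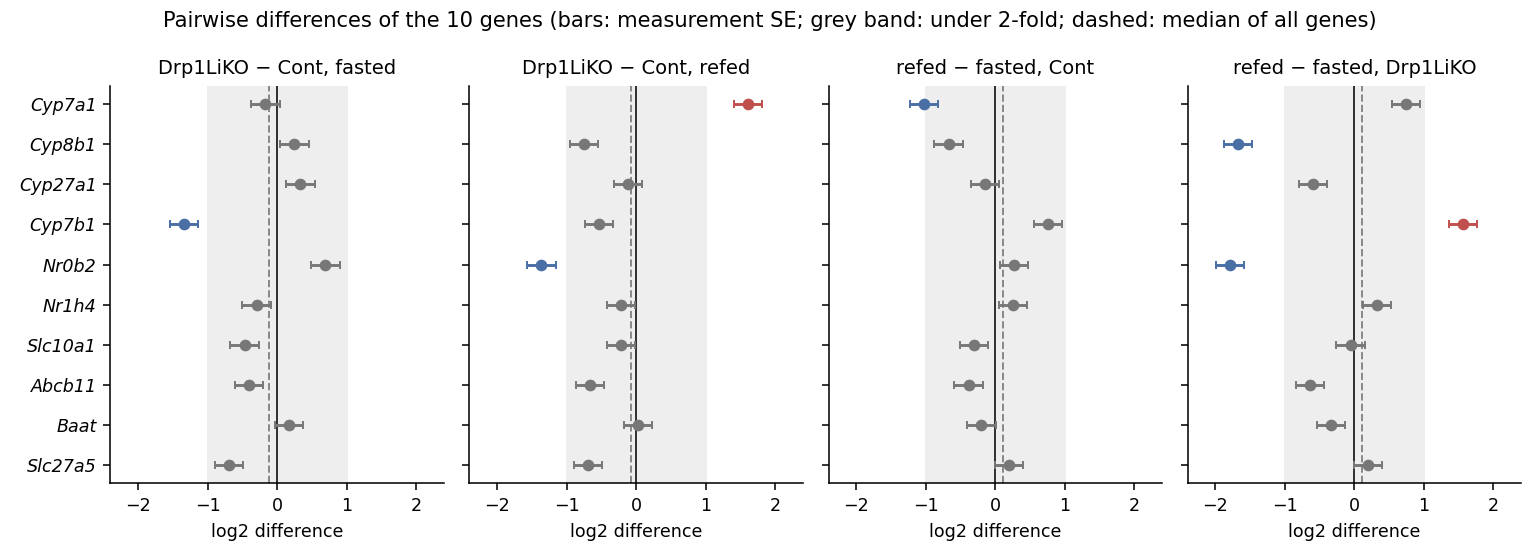
Log2 differences of the 10 genes in the 4 pairs of arrays, with bars of 1 measurement SE; red and blue points are called higher and lower, the grey band is under 2-fold, and the dashed line is the median of all genes measured on all 4 arrays. Called are Cyp7b1 in the fasted pair, Cyp7a1 and Nr0b2 in the refed pair, Cyp7a1 in Cont and Cyp8b1, Cyp7b1 and Nr0b2 in Drp1LiKO.

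Counted over the set, 1 of 10 genes was called between genotypes after fasting, where 13.2% of all genes with a usable signal were called and 6.72% of those well above background on both arrays. After refeeding 2 of 10 were called, against 14.4% and 7.56%. For refeeding the counts were 1 of 10 in Cont, against 10.3% and 4.11%, and 3 of 10 in Drp1LiKO, against 12.8% and 6.7%. The difference of the genotype differences was past 2-fold in 3 of 10 genes, against 14.9% and 4.25%. Counts this small say little about the set as a whole, and those of 1 and 2 of 10 lie near the shares of all genes with a usable signal. Of the 10 genes, 6 were lower in Drp1LiKO than in Cont liver after fasting (median -0.23) and 8 after refeeding (median -0.38), while the median over the 14447 genes was -0.12 and -0.08 and 61.3% and 57.8% of them were lower. Under quantile normalization 5 of the 10 were lower after fasting, with a median of -0.003, and 7 after refeeding, with a median of -0.24. The median refeeding difference was -0.17 in Cont and -0.20 in Drp1LiKO, against 0.11 and 0.12, and under quantile normalization it was -0.22 and -0.44. The comparisons share arrays and are not independent of each other.

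**Figure D3:**
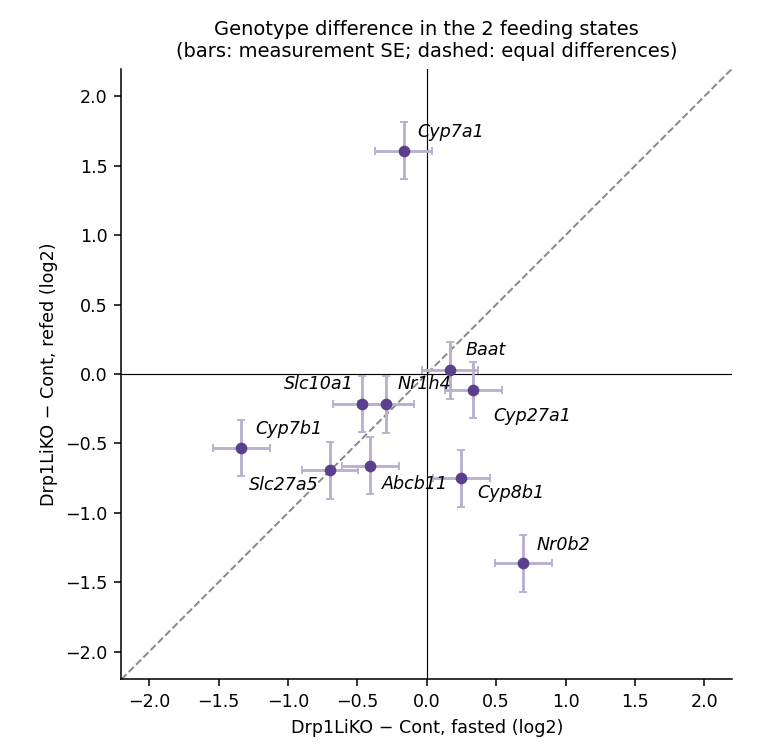
Log2 difference Drp1LiKO minus Cont in refed liver (y axis) against the same in fasted liver (x axis), 1 point a gene, with bars of 1 measurement SE and a dashed line of equal differences. Slc27a5 lies on the line, Cyp7a1 lies far above it (-0.17 and 1.61), and Nr0b2 (0.69 and -1.36) and Cyp8b1 (0.25 and -0.75) lie below it.

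Genotype and feeding state were also fitted together, in an additive limma model over all 4 arrays and 16744 genes with 1 residual degree of freedom, which counts any difference between the genotypes in their response as error. None of the 10 genes passed a Benjamini-Hochberg adjusted p under 0.05 for either term, and neither did any other gene (0% called for both), although 4746 genes for genotype and 4414 for feeding had an unadjusted p under 0.05. Such an unadjusted p was found for 3 of the 10 genes for feeding, near the share over all genes (4414 of 16744). For genotype it was also found for 3 of the 10, again near the share over all genes (4746 of 16744). They were Slc27a5 (-0.70, SE 0.14, limma adjusted p = 0.11), Cyp7b1 (-0.94, SE 0.26, adjusted p = 0.139) and Abcb11 (-0.53, SE 0.15, adjusted p = 0.145). For feeding these were Cyp7b1 (1.16, SE 0.26, limma adjusted p = 0.169), Cyp8b1 (-1.17, SE 0.30, adjusted p = 0.169) and Abcb11 (-0.51, SE 0.15, adjusted p = 0.176). Cyp7a1 and Nr0b2, whose genotype difference changed most between states, had limma adjusted p of 0.398 and 0.722 for genotype. After quantile normalization 1 of the 10 genes, Cyp7b1, kept an unadjusted limma p under 0.05 for genotype, while Slc27a5 was at -0.38 and Abcb11 at -0.33 (limma adjusted p = 0.217 and 0.285) and did not, and 4 had one for feeding.

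The promoters of Nr0b2, Cyp8b1 and Abcb11 are shown as those of genes that FXR or SHP is known to act on. All 3 were lowest in refed Drp1LiKO liver. Cyp27a1 and Slc10a1 were lowest there too, but by less than 1 measurement SE from the next level, and no direction is given for Slc10a1. RefSeq (GRCm38.p6) gave entries for 6 of the 10 genes, and the 250 bases before the start site are printed, 5′ to 3′ on the strand of the gene. Both strands were searched for 4 motifs: the nuclear receptor hexamer AGGTCA, its extended form CAAGGNC bound by LRH-1 (Nr5a2), an inverted repeat of the hexamer with 1 base between the arms (IR-1, the kind FXR binds, with the fourth base left free), and CAAAGTCCA, a core bound by HNF4. The last 2 were chosen with these promoters in view. Capitals mark matches.
Nr0b2, chr4:133553126-133553375, plus strand: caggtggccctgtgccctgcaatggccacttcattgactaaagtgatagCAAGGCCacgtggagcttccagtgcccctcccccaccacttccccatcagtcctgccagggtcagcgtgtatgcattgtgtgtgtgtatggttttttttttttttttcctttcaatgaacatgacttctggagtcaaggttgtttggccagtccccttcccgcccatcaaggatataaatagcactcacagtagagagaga
Cyp8b1, chr9:121916306-121916555, minus strand: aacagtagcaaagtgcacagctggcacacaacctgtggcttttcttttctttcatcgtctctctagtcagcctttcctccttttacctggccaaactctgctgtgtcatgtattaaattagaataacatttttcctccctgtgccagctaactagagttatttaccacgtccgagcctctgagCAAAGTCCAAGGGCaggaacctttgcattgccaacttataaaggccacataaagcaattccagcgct
Abcb11, chr2:69342617-69342866, minus strand: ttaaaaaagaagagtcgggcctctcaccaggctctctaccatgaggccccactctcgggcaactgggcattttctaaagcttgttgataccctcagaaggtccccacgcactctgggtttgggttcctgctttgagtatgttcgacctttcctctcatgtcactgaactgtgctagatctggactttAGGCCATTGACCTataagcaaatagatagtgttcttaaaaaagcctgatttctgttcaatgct
In Nr0b2 the LRH-1 letters start at -201 from the start site. In Cyp8b1 they start at -60 and overlap the HNF4 letters that start at -67. In Abcb11 the inverted repeat starts at -63 and contains the hexamer at -56. Among the entries not printed, that of Cyp27a1 held none of the 4 motifs, 1 of 2 for Slc10a1 held the hexamer at -87 and the other none, and that of Nr1h4 held the hexamer at -214. Of 32851 promoters of the same length, 14.02% held the hexamer, 15.03% the LRH-1 letters, 0.0335% the inverted repeat and 0.384% the HNF4 letters. These matches describe letters and are no evidence of binding in these livers.

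Other genes of the system gave the setting. Of 14 further synthesis enzymes, none was called between genotypes in either state, against 13.2% of all genes after fasting and 14.4% after refeeding. In Drp1LiKO liver 11 were lower after fasting (median -0.21) and 12 after refeeding (median -0.61). Of the 14447 genes, 61.3% and 57.8% were lower. The 5 hepatocyte markers had medians of -0.52 and -0.55, with 4 lower and 1 higher in each state. The part of the overall hepatocyte signal in the values of these enzymes was not tested. Examples of lower enzymes after refeeding were Hsd3b7, an enzyme common to both routes, at -0.78, and Scp2, the peroxisomal thiolase that shortens the side chain, at -0.74. These 2 and the genes in the next sentences that were not called were picked after their values were seen. With refeeding, 1 of the 14 enzymes was called higher and 1 lower in Cont, against 10.3% of all genes. In Drp1LiKO 1 was called higher and 2 lower, against 12.8%. Cyp2c70, which makes muricholic acids in mice, was higher by 1.34 in Cont and by 1.66 in Drp1LiKO liver. Cyp39a1, another hydroxylase of oxysterols, differed by -1.05 in Drp1LiKO and -0.15 in Cont. Ch25h, called lower in both genotypes, was not well above background in either refed liver, and no fold is given.

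Of 15 further transporters, 14 had a usable signal, and 1 was called higher and 2 lower in refed Drp1LiKO than in refed Cont liver, against 14.4% of all genes called in either direction. Slco1a1, an organic anion uptake carrier, differed by -1.70 after refeeding and -0.88 after fasting. Abcg8, a partner in the canalicular sterol exporter, differed by -1.57 and -0.73. Slc51b, a subunit of the basolateral bile acid exporter, was not well above background in refed Cont liver and was higher by at least 1.91 in refed Drp1LiKO liver, while the fasted pair differed by -0.15. Abcc4, another basolateral exporter, was higher by 1.24 after fasting and 0.82 after refeeding.

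Of 19 further regulators, 17 were lower in Drp1LiKO liver after fasting (median -0.46) and 15 after refeeding (median -0.22). The shares over the 14447 genes were 61.3% and 57.8%. Ppara, the fatty acid receptor that also acts on Cyp8b1 and Cyp7a1, was called lower in both states, at -1.06 and -1.39. Nr5a2 (LRH-1) differed by -0.66 and -0.28, Hnf4a by -0.32 and -0.38, and the parts of the FGF15 receptor, Fgfr4 and Klb, by -0.35 and -0.46 after fasting and -0.22 and -0.18 after refeeding. Fgf15 itself passed the background criterion in refed Drp1LiKO liver alone, and no fold is given. Ppargc1a, a coactivator of the fasting response, differed by -1.02 between refed and fasted Cont liver.

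Among detoxification enzymes, 5 of the 7 on the array had a usable signal. Cyp3a11, which hydroxylates bile acids and drugs, read 6.14, 6.37, 6.41 and 4.58 in fasted Cont, fasted Drp1LiKO, refed Cont and refed Drp1LiKO liver. Like Nr0b2 it stood low in the refed Drp1LiKO liver, at -1.83 from refed Cont. Cyp2b10, a target of the receptor CAR, differed by -1.35 after fasting and -2.89 after refeeding. In the 14 cholesterol synthesis and uptake genes, whose product feeds bile acid synthesis, 12 were higher in refed Drp1LiKO than in refed Cont liver, with a median of 0.68, and 4 were called, against 14.4% of all genes, among them Sqle, squalene epoxidase, at 3.12.

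**Figure D4:**
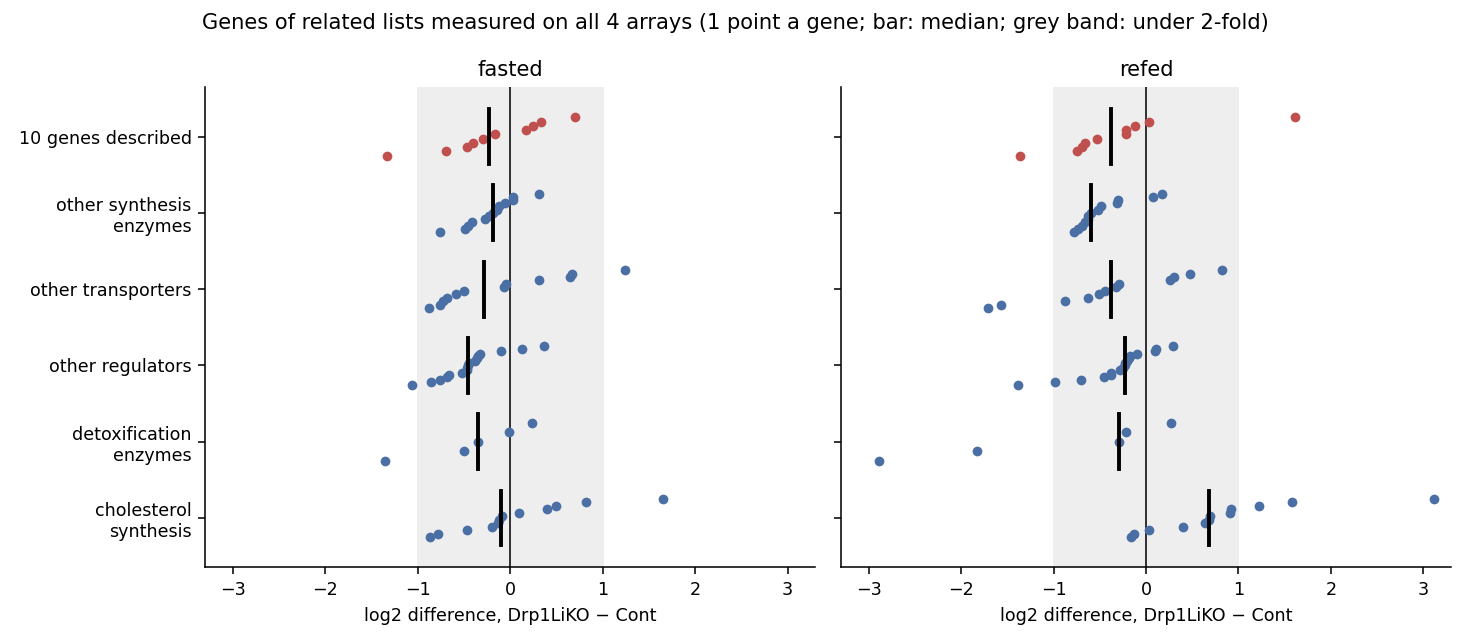
Log2 difference Drp1LiKO minus Cont in fasted (left) and refed liver (right) for the genes of 6 lists that were well above background on all 4 arrays, 1 point a gene, with a bar at the median and a grey band under 2-fold. In refed liver most points of the bile acid lists lie left of 0 and most of the cholesterol synthesis genes lie right of it, with Sqle at 3.12 as the farthest.

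Genes of the circadian clock were read in the same livers. Of 14 clock and output genes with a usable signal, 5 were called between genotypes after fasting, against 13.2% of all genes, and 1 after refeeding, against 14.4%. Their median genotype difference was -0.43 after fasting and -0.06 after refeeding. With refeeding, 1 of them was called higher and 1 lower in Cont, against 10.3% of all genes. In Drp1LiKO 4 were called higher and 2 lower, against 12.8%. Dbp, an output factor known to act on Cyp7a1, read 5.22 in fasted Cont, 3.42 in fasted Drp1LiKO, 5.52 in refed Cont and 4.59 in refed Drp1LiKO liver. Arntl, a core activator, was higher in Drp1LiKO liver by 2.11 after fasting and 1.19 after refeeding. Nr1d1, the repressor REV-ERB-alpha, differed with refeeding by -1.48 in Cont and -2.15 in Drp1LiKO. Dbp was thus lowest in fasted Drp1LiKO liver and higher in both Cont livers than in both Drp1LiKO livers, each level from 1 array. The part of clock phase in the values of the 10 genes was not tested.

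Of the 3 neutrophil markers, S100a8 and S100a9 had genotype differences of -1.04 and -1.11 after fasting and of 0.94 and 1.04 after refeeding, whereas Ly6g differed by 0.08 and 0.02. All 3 were well above background on all 4 arrays, and their summed signal, in units of the 75th percentile, was 4.13 in fasted Cont, 2.27 in fasted Drp1LiKO, 4.6 in refed Cont and 8.61 in refed Drp1LiKO liver. All 6 macrophage markers were well above background on all 4 arrays, and 5 of them were higher in refed Drp1LiKO than in refed Cont liver (median 0.56). Their summed signal was 67.1 in fasted Cont, 82.1 in fasted Drp1LiKO, 76.7 in refed Cont and 139.2 in refed Drp1LiKO liver, so it was highest in the same liver as that of the neutrophil markers. Of 6 cholangiocyte markers 5 had a usable signal, Epcam being at background on all 4 arrays, and only 2 were well above background on all 4. The 5 summed to 0.56, 1.09, 0.573 and 1.02 in the same order, a low signal that is partly at background. In the fasted pair 4 were higher and 1 lower in Drp1LiKO liver, with 2 called higher and 1 lower, against 13.2% of all genes called. In the refed pair 4 were higher and 1 lower, with 1 called higher, against 14.4%. The 10 pericentral genes, which mark the hepatocytes around the central vein, summed to 915, 564, 1096 and 631, and the brightest genes weigh most in such a sum. After fasting 7 were lower and 3 higher in Drp1LiKO liver (median -0.57). Of these, 1 was called lower and 2 higher, against 13.2% of all genes called. After refeeding 8 were lower and 2 higher (median -0.69), and 2 were called lower, against 14.4% of all genes called. Of the 3 markers of ileal enterocytes, which make FGF15, Slc10a2 was well above background on all 4 arrays, Fgf15 on 1 and Fabp6 on none. Slc10a2, the ileal bile acid carrier that is also made by cholangiocytes, read 1.38, 0.32, 1.096 and 0.99 in the same order, and its difference of -1.06 after fasting was called. Slc10a2 and Fgf15, without Fabp6, summed to 2.62, 1.26, 2.16 and 2.05, so the sum is mostly the signal of Slc10a2. Of the 10 periportal genes, 5 were higher and 5 lower in Drp1LiKO liver after fasting, with 1 called higher, against 13.2% of all genes. After refeeding 7 were higher and 3 lower, with 2 called higher, against 14.4%. Of 4 adipocyte markers only 1 had a usable signal. Its genotype difference was -5.07 after fasting and -6.27 after refeeding. The part of any of these cells in the bile acid values was not tested.

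The pattern of Cyp7a1 over the 4 arrays was closest to that of Cnst, Gpr6 and Zeb2 among the 14446 other genes measured on all 4 arrays, by the Euclidean distance between levels centred on their mean, which was 0.12, 0.25 and 0.27. All 3 were lowest in refed Cont and highest in refed Drp1LiKO liver. With 4 arrays many genes can match by this measure.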

How the data were processed

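Liver RNA was hybridized to 4 one-colour Agilent arrays, 1 for each group. The intensity values deposited by the authors are processed signals from Feature Extraction (10.7.1.1 per the file headers, 9.5.1.1 per the labels), background-subtracted within each array and not normalized between arrays. A second table of signal values deposited by the authors was matched by a quantile normalization of these signals (99.6% of values within 0.01 on the log2 scale) and was an alternative. The labels and the methods disagree on array design and RNA kit. The design printed in the scanner files is that of the labels.

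From each log2 signal the log2 of the 75th percentile over gene spots was subtracted. Outlier spots were left out and spots of a probe averaged. A gene was read from the probe well above background on most arrays, then the brightest. RefSeq accessions updated 26761 probe names, and all 12 probes of the 10 genes kept theirs. Other genes named were the called genes with the largest differences in their list, up to 3 a list and comparison, and genes named without a call, apart from those of marker lists given whole, were chosen after their values were seen. The 10 genes and all lists were chosen with earlier results of these data known. Limma 3.58.1 (R 4.3.3) tested the 16744 genes that passed the background criterion on 2 or more arrays, with Benjamini-Hochberg adjustment. The alternatives were normexp with offset 50, scaling to the median, quantile normalization, the authors' values, the median over probes, a stricter filter and 1.5-fold, and for limma also an intensity trend and single-factor models. The rules were also run on simulated data. For the 2-fold rule the simulated noise was the measurement SE alone, so its calls were not checked against a spread between mice. For limma the simulated genotypes did not differ in their response to feeding. Scripts ran in Python 3.11.15 (numpy 2.4.6, pandas 2.3.3, matplotlib 3.10.9).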

Additional observations from a re-analysis of the deposited data

Results flagged for a closer look

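The refeeding difference of Cyp7a1 ran in opposite directions in the 2 genotypes, -1.03 in Cont and 0.75 in Drp1LiKO, a gap of 1.78 on the log2 scale. The genotype difference of Nr0b2 ran in opposite directions in the 2 feeding states, 0.69 after fasting and -1.36 after refeeding, a gap of -2.06. Each value compares 1 array with another, and neither difference between groups was tested.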

How the results depend on the processing

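With 1.5-fold in place of 2-fold, the calls among the 10 genes were 3 between genotypes after fasting, 5 after refeeding, 3 for refeeding in Cont and 6 in Drp1LiKO. Of all genes with a usable signal, 2595 were called higher and 2490 lower of 18040 in the first of these comparisons. In the second 2580 and 2676 of 17446 were called. For refeeding it was 1648 and 1928 of 16437 in Cont and 3206 and 2736 of 18329 in Drp1LiKO. With normexp, 0 of the 10 genes were called for refeeding in Cont, because Cyp7a1 moved from -1.03 to -0.98. Under the other alternatives the counts of the 10 genes stayed within 1.5 times. Of 250 alternative values of single differences, 36 moved by more than their measurement SE, among them called differences of Cyp7b1 and Nr0b2. In 14 the sign changed, and none of these 14 was of a called difference. Limma called none of the 10 genes under any alternative. Over all genes it called 1214 for genotype and 15 for feeding with only genes well above background on all 4 arrays, 498 and 0 with normexp, 474 and 0 with an intensity trend, 319 and 0 with scaling to the median, 1 and 0 without the other factor and 0 and 0 with quantile normalization, so the adjusted p of these genes depends on the genes tested and the scaling. No paired analysis was possible because each group has 1 array. For the same reason no array could be left out, and the slide could not be a block because all 4 arrays lay on 1. Signals near background limit the dim genes of the lists.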
